A study of Mus musculus with 36 samples.

Results

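Mouse intestinal organoids treated for 24 h with 9-cis retinoic acid (9cisRA) were compared with organoids treated for the same time with its all-trans isomer (atRA), across all genes measured by mRNA sequencing. The comparison uses 8 of the study's 36 libraries, 4 with 9cisRA and 4 with atRA, chosen by their treatment and time labels. Organoids are miniature epithelia grown from stem cells. These came from 2 male C57BL/6 wild-type littermates aged 8 weeks, with 1 culture a mouse and RNA purified in duplicate, so each group has n = 2 mice. All groups share the culture history: single cells, 50000 a well, grew for 3 days in ENR medium (EGF, Noggin and R-Spondin) with Wnt3a-conditioned medium, the ROCK inhibitor Y-27632 and the GSK3 inhibitor CHIR99021. On day 3 the medium was changed to ENR without these additions. With that change 1 group received 9cisRA and 1 received atRA, each at 10 µM, and vehicle cultures received DMSO. Cultures taken at 6 h with the same compounds and doses serve as the earlier time. Each RNA sample pooled 3 wells. The duplicates share a mouse and measure purification, sequencing and any differences between wells, and only the mice measure spread between animals. The labels used here do not give the gut segment.

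Retinoic acid acts through nuclear receptors. Both isomers activate the retinoic acid receptors (RAR), whereas the retinoid X receptors (RXR) bind 9cisRA and have little affinity for atRA. RXR pairs with RAR and also with the fatty acid sensors PPAR, the oxysterol sensors LXR and the bile acid sensor FXR. An RXR ligand can itself activate some of these pairs, those with PPAR and LXR among them. In the small intestine these receptors set genes for fat oxidation, cholesterol export and bile acid transport in enterocytes, the absorptive cells. The isomers differ in the geometry of 1 double bond. The comparison asks which genes tell them apart at 1 dose and 1 time, with the same pair compared at 6 h.

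Levels are in RPKM (reads per kilobase, corrected for library size) and cover 12652 genes. Tests were run on the 11361 genes that reached 1 RPKM in 4 or more of the study's 36 libraries. The recovered reads summed to 25.4 to 29.6 M per 9cisRA library and 25.0 to 27.1 M per atRA library. All 12 markers of small intestine epithelium were present in the 8 libraries, with Epcam, an epithelial adhesion molecule, at 448 to 504 RPKM. Summed RPKM of the listed markers of other cells was low and overlapped between the isomers. The 5 listed fibroblast and smooth muscle genes in the table summed to 3.58 to 5.71 with 9cisRA and 3.61 to 5.11 with atRA, the 5 leukocyte genes to 11 to 12.1 with 9cisRA and 10.8 to 13.7 with atRA, and the 2 endothelial genes to 2.18 to 2.78 with 9cisRA and 2.35 to 2.69 with atRA. Defining markers of these cells such as Col1a1, Ptprc and Pecam1 were not analysed here. In a principal component analysis of the 8 libraries the first component (33.5% of the variance) separated the mice and the second (27.1%) lay mostly along the isomers. The first duplicate of mouse 2 with 9cisRA stood apart on the second component, at -14.5 against 0.731 for its duplicate. These duplicates differed by at least 0.5 log2 at 211 genes, against 69 to 88 genes for the other pairs. Counts without that library are given below for all calls and for PPAR targets, and the single genes that lost their call are named. Other list counts moved up or down, such as fatty acid synthesis (5 higher instead of 3) and cholesterol synthesis (4 lower instead of 5).

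**Figure D1:**
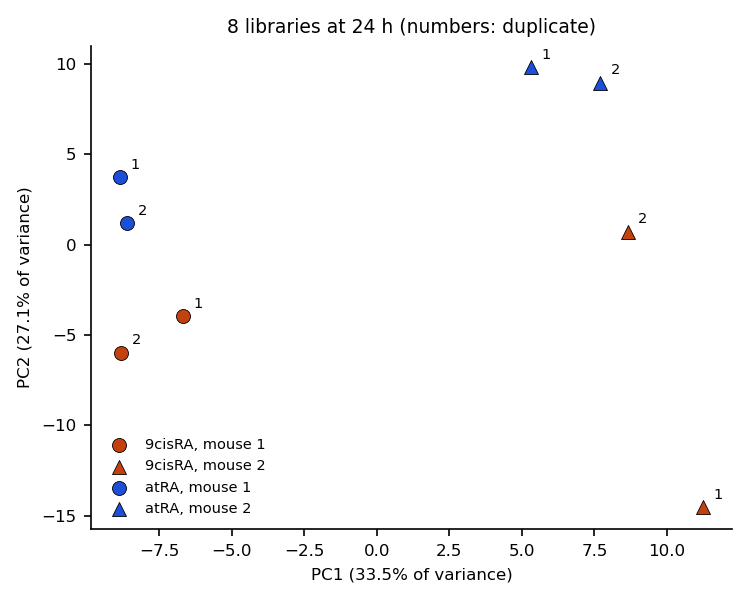
Principal components 1 and 2 of log2(RPKM + 0.5) over the tested genes for the 8 libraries at 24 h; colours mark the isomer, shapes the mouse and numbers the duplicate. Mice separate along the first component, isomers along the second within each mouse, and the first 9cisRA duplicate of mouse 2 lies lowest, at -14.5.

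At 24 h few genes were called different between the isomers, and most of those by small amounts. With 9cisRA 34 genes were higher and 19 lower than with atRA, 53 of 11361 tested genes in all (0.467%; 0.299% higher and 0.167% lower). On the scale of log2(RPKM + 0.5), used for every log2 difference here, 4 of these differed by at least 1, that is 2-fold (0.0352% of tested genes): the cholesterol exporter Abca1 and the apolipoprotein Apoa4 were higher with 9cisRA, and the bile acid binding protein Fabp6 and the retinoic acid hydroxylase Cyp26b1 were lower. By the ratio of mean RPKM, Pdk4 (2.01) and Dbp (2.02) also passed 2-fold. The median absolute log2 difference of the 53 was 0.43, and 33 of them (62.3%) lay under 0.5. All 53 had the same sign in both mice, and the 4 libraries of each isomer did not overlap at 47 of them, against 7.02% of all tested genes. Both follow in part from the selection, since the genes were called on these same libraries, and are not separate support. Calls are at an adjusted p below 0.05 in limma (Benjamini-Hochberg over all tested genes, two-sided), and log2 differences are 9cisRA minus atRA; with the added 0.5, those of weakly expressed genes are compressed. The p-values rest on how far the 2 mouse cultures disagreed on the differences between conditions, pooled over all 9 conditions. Besides the isomers and DMSO at 6 h and 24 h, these include cultures at 0 h without treatment. They also include cultures with an RXR antagonist at 5 µM for 6 h or 24 h. The difference in level between the mice is taken out by the mouse term. At an unadjusted p below 0.05 in limma there were 1359 of the 11361 tested genes. With n = 2 mice, a gene that was not called is not shown to be equal between the isomers. The median difference over all tested genes was -0.0015 and its median SE 0.072.

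Against DMSO, by the same rule, 9cisRA differed at 47.9% of tested genes and atRA at 38.0%, comparisons that share the vehicle libraries. Leaving out each of the 8 libraries in turn gave 49 to 77 calls in all. The highest count, with 55 higher instead of 34, came without the second 9cisRA duplicate of mouse 2, and without the first there were 57 calls, 45 of them shared with the 53. Without the mouse term 10 genes were called, all among the 53. Scaling to each library's read sum moved the split to 23 higher and 28 lower, with a median difference over all genes of -0.0348.

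**Figure D2:**
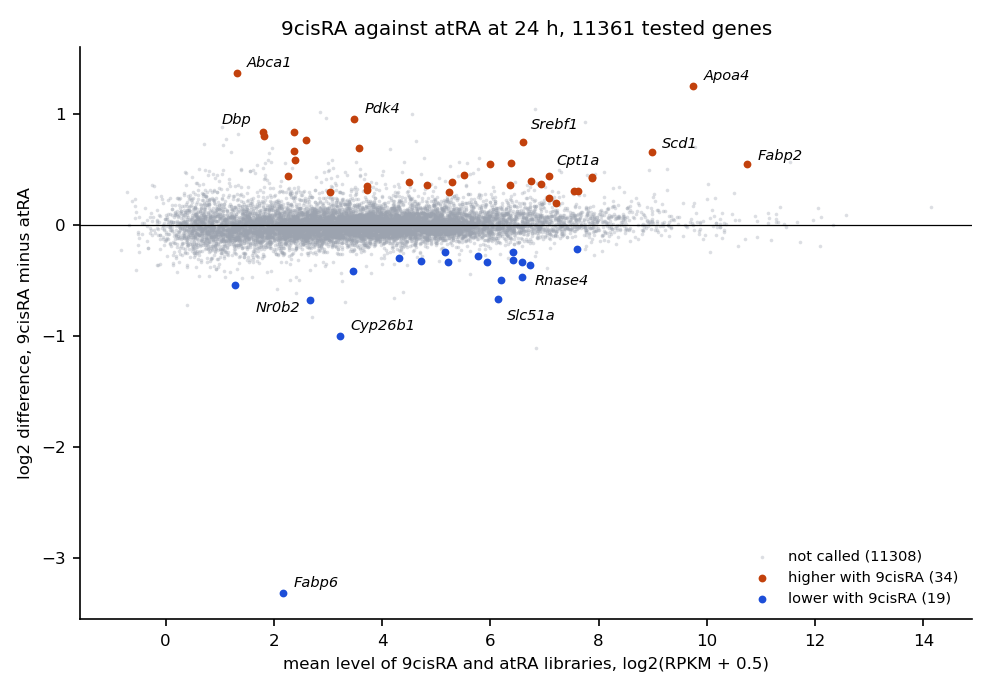
Log2 difference at 24 h (9cisRA minus atRA) against the mean level of the 2 groups for 11361 tested genes; orange genes were called higher with 9cisRA (34) and blue genes lower (19). Fabp6 lies lowest, at -3.32, and most called genes lie within 1 log2 of no difference.

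The widest difference was at 1 bile acid gene, Fabp6, which was lower with 9cisRA, and 2 further FXR targets, Slc51a and Nr0b2, were lower too. FXR, encoded by Nr1h4, switches on genes by which ileal enterocytes bind bile acids, pass them to the blood and report them to the liver. Fabp6, the ileal protein that carries bile acids through the enterocyte (chromosome 11, 43596040 to 43601562, GRCm38), held 0.148, 0.172, 0.392 and 0.426 RPKM with 9cisRA, against 5.26, 4.46, 11.4 and 9.93 RPKM with atRA and 0.155, 0.0767, 0 and 0 RPKM with DMSO (mouse 1 duplicates, then mouse 2, here and below). Every 9cisRA library lay far under every atRA library. The difference was -3.32 ± 0.28 (SE; limma adjusted p = 9.11e-05). The reads behind it were 2, 2, 5 and 5 with 9cisRA and 62, 55, 140 and 123 with atRA, so 14 of the 394 reads (3.55%, exact binomial 95% interval 1.96% to 5.89%, counting error only) came from the 9cisRA libraries. Against DMSO, Fabp6 differed by 0.48 (adjusted p = 0.172) with 9cisRA and by 3.80 (adjusted p = 9.28e-07) with atRA, sizes that depend on the pseudocount since 2 DMSO libraries were at 0. In bulk RNA of whole cultures, fewer cells of a type and less RNA per cell cannot be told apart.

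The 250 bases before the start of Fabp6 are shown because they hold matches to the FXR-type element, an inverted repeat of AGGTCA spaced by 1 base (IR1, AGGTCANTGACCT). Both strands were searched with at most 2 mismatches over the 12 fixed letters. A match occurred in 0.959% of 32851 RefSeq promoter windows of this length (GRCm38.p6), and in 0.745% of the 11541 windows of tested genes. In the Fabp6 window (chr11:43601563-43601812, minus strand, written 5′ to 3′) 2 matches, in capitals, start 222 and 142 bases before the gene.
Fabp6: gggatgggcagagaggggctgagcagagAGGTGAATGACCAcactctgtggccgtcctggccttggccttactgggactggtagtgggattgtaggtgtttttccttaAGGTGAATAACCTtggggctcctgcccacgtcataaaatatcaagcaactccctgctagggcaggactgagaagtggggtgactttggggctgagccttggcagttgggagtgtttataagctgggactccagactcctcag
Of the 53 called genes 42 had a promoter sequence, and 3 held any of the 5 receptor motifs searched (the direct repeats DR1, DR2, DR4 and DR5 of AGGTCA, and IR1): Fabp6, the phosphate transporter gene Slc20a1 with IR1 and the lipid droplet gene Cidec with DR5, the last pair each at 1 of 2 annotated starts. Among all windows the share with any of the 5 was 10.4%. That share counts windows, whereas the 3 of 42 counts genes, 8 of which had more than 1 window. These matches are descriptions of letters, and binding was not measured.

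Slc51a and Slc51b encode the subunits of the transporter that passes bile acids out of the enterocyte toward the blood. Slc51a (chromosome 16, 32475578 to 32487879) was lower with 9cisRA, at 49.1, 46.2, 63 and 58.8 RPKM against 78.2, 78.1, 90.2 and 98.2 RPKM with atRA and 24.8, 26.9, 27.4 and 29.3 RPKM with DMSO. The difference was -0.67 ± 0.089 (SE; limma adjusted p = 0.00570), with no overlap between the isomers, and both lay above vehicle. Slc51b held 62.8, 55, 88.9 and 86.4 RPKM with 9cisRA and 139, 139, 164 and 182 RPKM with atRA, a larger difference that did not pass the test (log2 difference -1.10 ± 0.24 SE, limma adjusted p = 0.0675, interval -1.61 to -0.60). Nr0b2, the corepressor SHP (chromosome 4, 133553376 to 133556686), was lower with 9cisRA, at 4.02, 3.79, 5.34 and 4.41 RPKM against 6.82, 6.74, 7.81 and 7.67 RPKM with atRA and 0.955, 0.549, 0.887 and 0.858 RPKM with DMSO (log2 difference -0.67 ± 0.13 SE, limma adjusted p = 0.0413). Its call was lost without the second 9cisRA duplicate of mouse 2, with either mouse alone, at a pseudocount of 0.1 and after quantile normalization. Fgf15, the hormone that reports bile acids to the liver, averaged 41.3 ± 0.264 RPKM with 9cisRA, 56.3 ± 0.304 with atRA and 4.88 ± 0.672 with DMSO (SD, n = 2 mice, here and below) and was not called (log2 difference -0.44 ± 0.11 SE, limma adjusted p = 0.124), although its libraries did not overlap.

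Of 11 tested FXR targets 3 were lower with 9cisRA and 0 higher, beside 0.167% lower among all tested genes, with a median of -0.39. The members did not all lean one way: 3 of the 11 lay above 0. Apoc2, an apolipoprotein that activates lipoprotein lipase, differed by 0.50 (adjusted p = 0.202) in limma, and the ileal bile acid uptake carrier Slc10a2 by 0.02 (adjusted p = 0.969); both were picked after their values were seen. Nr1h4 itself held 26.4 ± 0.606 RPKM with 9cisRA and 23.2 ± 0.124 with atRA (log2 difference 0.18 ± 0.066 SE, limma adjusted p = 0.290). Leaving out single libraries gave 2 to 3 lower members, and leaving the mouse out of the model gave 1.

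**Figure D3:**
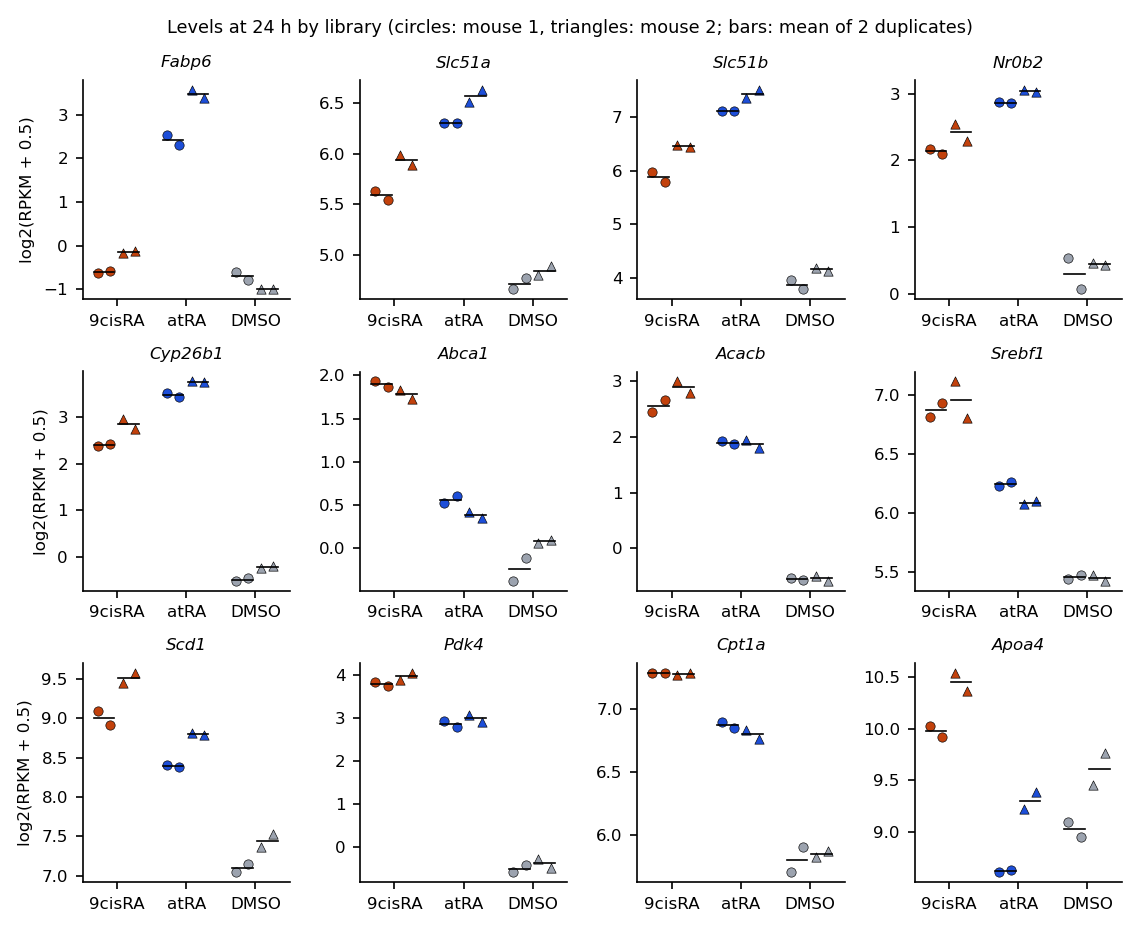
Level of 12 genes at 24 h in each library, as log2(RPKM + 0.5), with 9cisRA, atRA and DMSO from left to right; circles are mouse 1, triangles mouse 2 and bars the mean of 2 duplicates. Fabp6, Slc51a, Slc51b, Nr0b2 and Cyp26b1 are lower with 9cisRA than with atRA in both mice, and the other 7 genes are higher.

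The retinoic acid hydroxylase Cyp26b1 was lower with 9cisRA, and most retinoid response genes were not called. Cyp26b1 clears retinoic acid by oxidation. The gene (chromosome 6, 84571414 to 84593908) held 4.70, 4.86, 7.30 and 6.21 RPKM with 9cisRA, against 11.1, 10.3, 13.2 and 13.1 RPKM with atRA and 0.194, 0.222, 0.337 and 0.374 RPKM with DMSO. Both isomers thus lay far above vehicle, and the 9cisRA libraries all lay under the atRA libraries, with a ratio of means of 0.483. The difference was -1.0 ± 0.12 (SE; limma adjusted p = 0.00261). Against DMSO, Cyp26b1 was higher by 2.99 (adjusted p = 2.58e-09) with 9cisRA and by 3.99 (adjusted p = 2.54e-10) with atRA. The call was lost at a pseudocount of 0.1 (adjusted p = 0.0643, the highest over its alternatives).

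Rdh11, a retinal reductase, was lower with 9cisRA at -0.28 ± 0.052 (limma adjusted p = 0.0376). Cebpa, a transcription factor of differentiation, was higher at 0.38 ± 0.07 (limma adjusted p = 0.0368). The Rdh11 call was lost without the first 9cisRA duplicate of mouse 2, and the Cebpa call without the first atRA duplicate of mouse 2.

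Rbp2, the retinol binding protein of enterocytes, is among the most abundant transcripts here. It held 3183, 2894, 3934 and 4066 RPKM with 9cisRA, against 2025, 1979, 2679 and 2877 RPKM with atRA and 2467, 2222, 2899 and 3228 RPKM with DMSO. The isomers did not overlap, but the difference fell just short of the threshold (log2 difference 0.56 ± 0.11 SE, limma adjusted p = 0.0520, interval 0.32 to 0.81). Its upstream window is shown because the rat gene is a textbook case of an RXR element made of repeats spaced by 1 base (DR1, AGGTCANAGGTCA). DR1 occurred in 3.24% and DR2 (AGGTCANNAGGTCA) in 2.51% of all windows, under the same search. In windows of tested genes the shares were 2.69% for DR1 and 1.83% for DR2. In the mouse window (chr9:98490287-98490536, plus strand, GRCm38.p6, RefSeq) 2 DR2 matches start 109 and 66 bases before the gene and 1 DR1 match 58 bases before it, all on the opposite strand. The DR1 match overlaps the second DR2 match, so they form 1 run of capitals.
Rbp2: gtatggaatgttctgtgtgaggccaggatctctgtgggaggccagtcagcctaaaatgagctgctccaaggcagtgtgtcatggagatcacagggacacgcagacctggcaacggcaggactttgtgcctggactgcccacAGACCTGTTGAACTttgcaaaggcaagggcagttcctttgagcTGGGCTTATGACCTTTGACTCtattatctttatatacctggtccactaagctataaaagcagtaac
The matches describe these letters only. Their positions were not compared with that of the rat element, which may lie outside the 250 bases searched.

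Unlike Cyp26b1, the RAR response genes Dhrs3 and Isx showed no called isomer difference, and the intervals bound how large one could be. Dhrs3, which reduces retinal, held 42.1 ± 5.38 RPKM with 9cisRA, 42.9 ± 4.36 with atRA and 29.3 ± 3.05 with DMSO (log2 difference -0.03 ± 0.095 SE, limma adjusted p = 0.948, interval -0.23 to 0.18). Isx, the homeobox repressor of carotenoid uptake, held 184 ± 15.1 with 9cisRA, 186 ± 14.1 with atRA and 129.7 ± 14 with DMSO (log2 difference -0.02 ± 0.10 SE, limma adjusted p = 0.974, interval -0.24 to 0.21). Both genes were above vehicle with either isomer: Dhrs3 by 0.52 (adjusted p = 0.000686) with 9cisRA and 0.54 (adjusted p = 0.000731) with atRA, and Isx by 0.51 (adjusted p = 0.00132) with 9cisRA and 0.52 (adjusted p = 0.00155) with atRA. Of 15 tested retinoic acid response genes 2 were higher with 9cisRA and 1 lower (median 0.08), beside 0.299% higher and 0.167% lower among all genes, and of 20 genes of retinoid binding and oxidation 1 was higher and 2 lower (median -0.07). These lists share members, Cyp26b1 among them. Among 18 tested receptors of RXR and its partners the only call was Nr0b2. Rxra held 19 ± 0.864 RPKM with 9cisRA and 16.6 ± 0.228 with atRA (log2 difference 0.19 ± 0.058 SE, limma adjusted p = 0.211), and Rara 9.64 ± 0.483 with 9cisRA and 8.25 ± 0.804 with atRA (log2 difference 0.21 ± 0.062 SE, limma adjusted p = 0.197). Rarb was not analysed here.

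LXR target genes included the widest difference above 0, and 3 of 16 tested were higher with 9cisRA (0 lower; median 0.21; 0.299% of all genes higher). LXR senses oxysterols and turns on cholesterol export and fatty acid synthesis. Abca1, the cholesterol exporter of the cell membrane (chromosome 4, 53030789 to 53159988), held 3.31, 3.15, 3.05 and 2.82 RPKM with 9cisRA, against 0.932, 1.02, 0.835 and 0.770 RPKM with atRA and 0.270, 0.427, 0.547 and 0.572 RPKM with DMSO. The 9cisRA libraries lay well above all others, at 3.47 times the atRA mean, on 666 to 902 reads a library with 9cisRA and 192 to 252 with atRA. The difference was 1.37 ± 0.11 (SE; limma adjusted p = 9.11e-05).

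Srebf1, the transcription factor of fatty acid synthesis (chromosome 11, 60199084 to 60224186), held 112, 122, 138 and 112 RPKM with 9cisRA, against 74.6, 76.4, 66.9 and 68.1 RPKM with atRA and 42.8, 44, 43.8 and 42.4 RPKM with DMSO (log2 difference 0.75 ± 0.11 SE, limma adjusted p = 0.00638). Scd1, a fatty acid desaturase (chromosome 19, 44394450 to 44407709), held 543, 481, 694 and 761 RPKM with 9cisRA, against 338, 333, 447 and 442 RPKM with atRA and 131, 141, 164 and 184 RPKM with DMSO (log2 difference 0.66 ± 0.096 SE, limma adjusted p = 0.00802). For both genes all 9cisRA libraries lay above all atRA libraries, which lay above vehicle. The sterol exporter subunits Abcg5 and Abcg8 differed by 0.25 (adjusted p = 0.250) and 0.28 (adjusted p = 0.209) in limma, with overlapping libraries. Abcg1, another cholesterol exporter, lay under the filter and was not tested. It held 0.444, 0.495, 0.542 and 0.499 RPKM with 9cisRA, against 0.159, 0.198, 0.138 and 0.184 with atRA and 0.0624 to 0.0935 with DMSO. The summed RPKM of the list was 2230 to 2599 in 9cisRA libraries and 1852 to 1964 in atRA libraries. The sum of the FXR list overlapped, at 740 to 1092 with 9cisRA and 806 to 1066 with atRA. So did that of the PPAR list, at 23732 to 30647 with 9cisRA and 20196 to 27372 with atRA. A list without a call could also separate, as brush border genes did (3277.5 to 3421 with 9cisRA, 3028 to 3145 with atRA).

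Among 23 tested genes of fatty acid synthesis 3 were higher with 9cisRA and 0 lower, beside 0.299% higher among all genes, with a median of 0.02, near that of all genes. Besides Srebf1 and Scd1 this was Acacb, the acetyl-CoA carboxylase at mitochondria whose product restrains fatty acid entry (chromosome 5, 114146321 to 114250761). It held 4.93, 5.83, 7.46 and 6.35 RPKM with 9cisRA, against 3.28, 3.16, 3.35 and 2.97 RPKM with atRA and 0.189, 0.174, 0.211 and 0.167 RPKM with DMSO (log2 difference 0.84 ± 0.10 SE, limma adjusted p = 0.00261). The synthase Fasn, picked with Acaca after values were seen, was not called, at 49.7 ± 1.01 RPKM with 9cisRA and 49.5 ± 5.21 with atRA (0.0 ± 0.09, interval -0.19 to 0.19), nor was Acaca, the cytosolic carboxylase (-0.03 ± 0.058, interval -0.15 to 0.10).

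PPAR target genes, many of which serve fatty acid oxidation, held the most calls of any list. Their share of called members was smaller than that of the shorter FXR list (3 of 11). With 9cisRA 9 of 41 tested PPAR targets were higher and 0 lower, with a median of 0.24, beside 0.299% higher and a median of -0.0015 over all genes. Their differences were above 0 at 39 of 41, against 49.3% of all tested genes. Pdk4, a kinase that restrains the oxidation of glucose carbon in mitochondria (chromosome 6, 5483351 to 5496278), held 13.7, 12.9, 14.3 and 15.9 RPKM with 9cisRA, against 7.12, 6.35, 7.85 and 7.01 RPKM with atRA and 0.160, 0.249, 0.318 and 0.212 RPKM with DMSO. The 9cisRA libraries lay at 2.01 times the atRA mean, and both isomers far above vehicle. The difference was 0.96 ± 0.075 (SE; limma adjusted p = 9.11e-05).

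Cpt1a, the gate for fatty acids into mitochondria (chromosome 19, 3322326 to 3385735), held 155, 155, 154 and 155 RPKM with 9cisRA, against 118, 115, 114 and 108 RPKM with atRA and 51.5, 59.3, 56.1 and 58 RPKM with DMSO (log2 difference 0.45 ± 0.05 SE, limma adjusted p = 0.00138). The groups did not overlap, and the 9cisRA libraries lay within 2 RPKM of each other. Acot1, an acyl-CoA thioesterase with near-identical relatives, so that its share of reads is uncertain, held 68.4, 65.9, 82.8 and 83.3 RPKM with 9cisRA, against 46.8, 44.3, 55.5 and 58.5 RPKM with atRA and 10.7, 9.69, 14 and 14 RPKM with DMSO (log2 difference 0.55 ± 0.10 SE, limma adjusted p = 0.0376). Fabp2, a fatty acid carrier of enterocytes, averaged 2029 ± 409 RPKM with 9cisRA and 1393 ± 375 with atRA (log2 difference 0.55 ± 0.076 SE, limma adjusted p = 0.00602); its libraries overlapped between the mice, and within each mouse both 9cisRA values were higher. The other calls were Eci2, Aldh3a2, Acaa1a, Hadha and Cidec, at 0.20 to 0.45. Without the first atRA duplicate of mouse 2 the calls of Acaa1a, Cidec and Hadha were lost, without the first of mouse 1 those of Cidec and Hadha, without the first 9cisRA duplicate of mouse 1 that of Cidec, and without the second of mouse 2 that of Hadha. Cyp4a10, a fatty acid hydroxylase of a family with similar copies, differed by 1.01 ± 0.25 (SE; limma adjusted p = 0.116). The count of 9 was 6 without the first atRA duplicate of mouse 2, 11 without the first 9cisRA duplicate of mouse 2, 5 after quantile normalization and 2 without the mouse term.

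Of 29 tested genes of mitochondrial fatty acid oxidation 2 were higher, Cpt1a and Hadha (median 0.09; 1 to 4 with single libraries left out). Of 41 peroxisomal genes 3 were higher, Eci2, Acaa1a and the peroxisomal acyl-CoA transporter Abcd3 (median 0.09), beside 0.299% higher among all genes. Abcd3 averaged 207 ± 9.88 RPKM with 9cisRA and 167 ± 13 with atRA (log2 difference 0.31 ± 0.051 SE, limma adjusted p = 0.0222). The Abcd3 call was lost without the second 9cisRA duplicate of mouse 2. None was lower. These lists overlap the PPAR targets, so they are not separate evidence.

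Fat packaging genes were higher with 9cisRA at 4 of 26 tested (0 lower; median 0.14), beside 0.299% higher among all genes. Quantile normalization left 0 of these calls and the fit without the mouse term 0. Apoa4, the apolipoprotein of chylomicrons (chromosome 9, 46240844 to 46243458), held 1045, 967, 1489 and 1317 RPKM with 9cisRA, against 389, 396, 596 and 666 RPKM with atRA and 545, 495, 702 and 869 RPKM with DMSO. The 9cisRA libraries lay above all atRA libraries, and atRA and DMSO overlapped (log2 difference 1.25 ± 0.23 SE, limma adjusted p = 0.0357). The call was lost after quantile normalization, with a variance prior without a trend and without the mouse term. Against DMSO, Apoa4 was higher by 0.90 (adjusted p = 0.00558) with 9cisRA and not called with atRA, at -0.36 (adjusted p = 0.234). Dgat2, which makes triglyceride, held 143, 143, 139 and 127 RPKM with 9cisRA, against 108, 111, 102 and 106 RPKM with atRA (log2 difference 0.37 ± 0.057 SE, limma adjusted p = 0.0115). Cidec and Plin3, proteins of lipid droplets, were higher by 0.45 (adjusted p = 0.0467) and 0.24 (adjusted p = 0.0467) in limma. The Plin3 call was lost without the second 9cisRA duplicate of mouse 1, the first of mouse 2, or the second atRA duplicate of either mouse. Apoa1, the main protein of high-density lipoprotein, averaged 1078 ± 298 RPKM with 9cisRA and 680.5 ± 289 with atRA and was not called (log2 difference 0.70 ± 0.29 SE, limma adjusted p = 0.362).

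Of 28 tested cholesterol synthesis genes 5 were lower with 9cisRA and 0 higher, beside 0.167% lower among all genes. Their median was -0.12, and 4 of 28 lay above 0, against 49.3% of all tested genes. SREBP2 drives this pathway when sterols are scarce. Fdft1, squalene synthase, held 52.7, 54, 53.1 and 55 RPKM with 9cisRA, against 65.6, 67.4, 67.6 and 71.2 RPKM with atRA and 66.6, 66.3, 62.6 and 63.8 RPKM with DMSO. The 9cisRA libraries lay below all others (log2 difference -0.34 ± 0.043 SE, limma adjusted p = 0.00374). Cyp51, the lanosterol demethylase, held 97.3, 94.8, 82.3 and 97.8 RPKM with 9cisRA, against 118, 117, 119 and 122 RPKM with atRA (log2 difference -0.36 ± 0.058 SE, limma adjusted p = 0.0182).

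Nsdhl, Lss and Fdps, further enzymes of the chain, were lower by small amounts, at -0.24 (adjusted p = 0.0412), -0.25 (adjusted p = 0.0423) and -0.22 (adjusted p = 0.0468) in limma. The summed RPKM of the 28 genes was 1945 to 2024 in 9cisRA libraries, below the 2120 to 2233 of the atRA libraries. Insig2, a brake on this pathway that is not in the list, and was picked after its value was seen, was also lower with 9cisRA (-0.30 ± 0.054, limma adjusted p = 0.0359). Single left-out libraries ended some of these calls: Nsdhl without the first 9cisRA duplicate of mouse 2, Lss without the second or without the first atRA duplicate of mouse 2, and Insig2 without the first atRA duplicate of mouse 1. The Fdps call ended without any 1 of 4 libraries: the first 9cisRA duplicate of mouse 1, the second of mouse 2, the first atRA duplicate of mouse 1 or the second of mouse 2. The count of 5 was 2 with a variance prior without a trend and 1 without the mouse term.

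**Figure D4:**
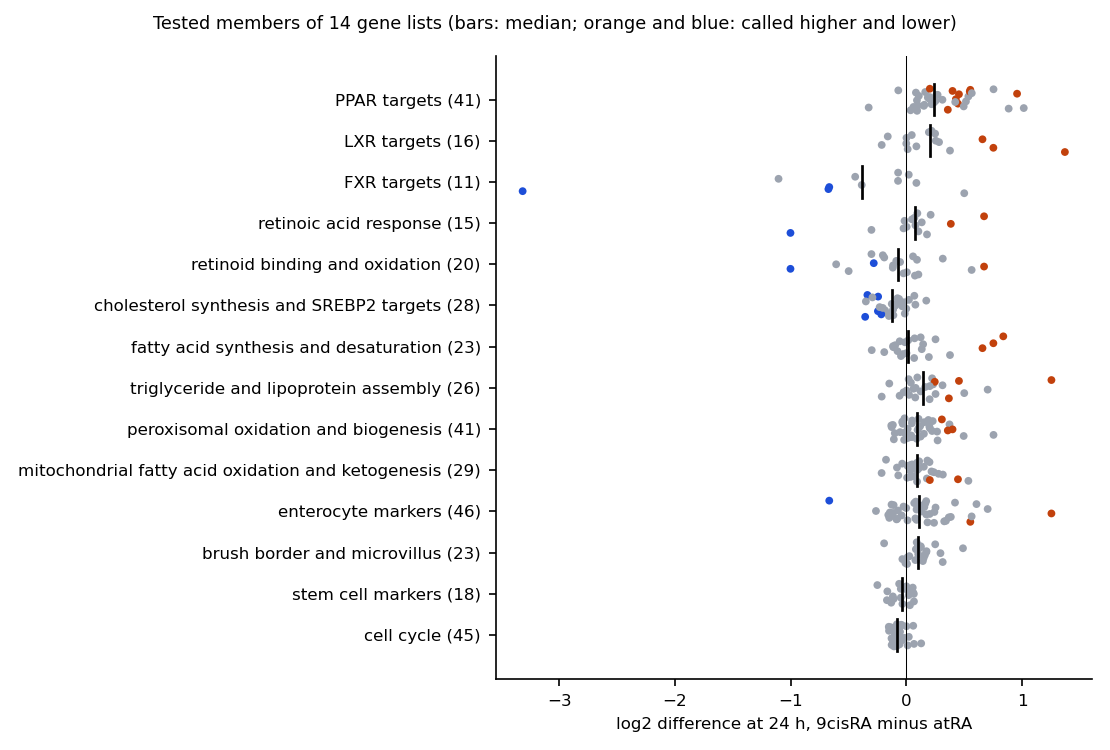
Log2 difference at 24 h (9cisRA minus atRA) of each tested member of 14 gene lists, with the number tested in parentheses; bars mark medians, and orange and blue points members called higher and lower. PPAR and LXR targets lie mostly to the right (medians 0.24 and 0.21), FXR targets and cholesterol synthesis to the left (-0.39 and -0.12), and most cell cycle genes a little to the left (-0.08), none of them called.

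Few markers of cell identity were called. Among 46 tested enterocyte markers 2 were higher with 9cisRA, Fabp2 and Apoa4, and 1 lower, Slc51a (median 0.11), beside 0.299% higher and 0.167% lower among all genes. Alpi, the brush border phosphatase, held 885, 895, 974 and 890.4 RPKM with 9cisRA, against 815, 825, 781 and 813 RPKM with atRA and 554, 569, 579.7 and 583 RPKM with DMSO, and was not called (log2 difference 0.17 ± 0.11 SE, limma adjusted p = 0.580, interval -0.06 to 0.40). No member was called among 23 brush border genes (median 0.10), 18 stem cell markers (-0.04), 45 cell cycle genes (-0.08), 12 Wnt targets (-0.04), 19 goblet (0.07), 19 Paneth (-0.11), 13 enteroendocrine (0.10) and 4 tuft cell markers (0.04). Although none passed the test, 6 of the 45 cell cycle genes and 4 of the 19 Paneth markers lay above 0, and 20 of the 23 brush border genes, against 49.3% of all tested genes. Intervals for single markers show what the data allow. Olfm4, a stem cell marker, differed by -0.25 ± 0.26 (interval -0.82 to 0.32), the proliferation marker Mki67 by -0.10 ± 0.066 (-0.24 to 0.05), the goblet mucin Muc2 by -0.12 ± 0.11 (-0.37 to 0.13), the Paneth lysozyme Lyz1 by -0.22 ± 0.20 (-0.66 to 0.21) and the enteroendocrine granin Chga by -0.01 ± 0.12 (-0.27 to 0.25). Lgr5, the stem cell receptor, lay under the filter, at 0.312 to 0.478 RPKM with 9cisRA and 0.230 to 0.681 with atRA. Dclk1 was not analysed here.

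The remaining lists held few calls. Asns, asparagine synthetase, was the only one of 26 integrated stress response genes called (lower, log2 difference -0.31 ± 0.044 SE, limma adjusted p = 0.00669; list median -0.09), Ndrg1 the only one of 30 glycolysis and hypoxia genes (lower, log2 difference -0.33 ± 0.063 SE, limma adjusted p = 0.0413), and Aldh3a1 the only one of 8 aryl hydrocarbon receptor targets (higher, log2 difference 0.58 ± 0.11 SE, limma adjusted p = 0.0412). The Ndrg1 call was lost without the second 9cisRA duplicate of mouse 1, and the Aldh3a1 call without that library, the first 9cisRA duplicate of mouse 2 or the first atRA duplicate of mouse 1. No member was called among 9 VDR, 23 PXR and CAR, 7 thyroid hormone and 26 NRF2 target genes, 29 interferon, 59 oxidative phosphorylation and 22 ER stress genes, 16 stomach and fetal-like genes, 4 digestive enzymes of pancreas type, 12 epithelium markers, and 3 fibroblast, 5 leukocyte and 2 endothelial markers. Their medians lay between -0.15 and 0.14.

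Of the 53 called genes 21 were in no list, and several of these were among the wider differences. Dbp, a clock-controlled transcription factor, held 3.75, 2.84, 5.10 and 4.33 RPKM with 9cisRA, against 2.04, 1.73, 2.10 and 2.06 RPKM with atRA and 4.26, 4.29, 4.81 and 4.89 RPKM with DMSO (log2 difference 0.84 ± 0.12 SE, limma adjusted p = 0.00602). The atRA libraries lay below both other groups. Aqp3, a water and glycerol channel, held 2.69, 3.18, 5.92 and 4.32 RPKM with 9cisRA, against 1.74, 1.62, 2.21 and 2.57 RPKM with atRA (log2 difference 0.80 ± 0.16 SE, limma adjusted p = 0.0497). That call was lost without the second 9cisRA duplicate of either mouse and without the first atRA duplicate of mouse 2. Rab30, a small GTPase of the Golgi, held 12.9, 11.6, 16.1 and 16.3 RPKM with 9cisRA, against 7.02, 6.95, 9.55 and 11.1 RPKM with atRA (log2 difference 0.70 ± 0.13 SE, limma adjusted p = 0.0389), a call lost without the first atRA duplicate of mouse 2.

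Ecm1, a secreted matrix protein, held 94, 105, 103 and 92.7 RPKM with 9cisRA, against 67.4, 71.2, 61.1 and 68.2 RPKM with atRA and 70.1, 76.2, 61.4 and 59.8 RPKM with DMSO (log2 difference 0.56 ± 0.088 SE, limma adjusted p = 0.0141); atRA and DMSO overlapped and 9cisRA lay above both. Gm5485, a predicted gene whose read assignment is uncertain, held 7.74, 5.36, 6.05 and 9.49 RPKM with 9cisRA, against 2.96, 3.82, 4.02 and 5.11 RPKM with atRA (log2 difference 0.76 ± 0.11 SE, limma adjusted p = 0.00965), a call lost without the second 9cisRA duplicate of mouse 2. Of the 5 genes lower by at least 0.5, the one beside Fabp6, Cyp26b1, Slc51a and Nr0b2 was 2700038G22Rik, a RIKEN transcript at 1.59, 1.72, 1.40 and 1.21 RPKM with 9cisRA and 3.00, 2.42, 2.36 and 1.83 RPKM with atRA (log2 difference -0.54 ± 0.10 SE, limma adjusted p = 0.0423). Its call was lost without the first 9cisRA duplicate of mouse 1, the second of mouse 2, or the first atRA duplicate of either mouse.

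The 6 h cultures, which share no library with those of 24 h, show which differences were already present. They come from the same 2 mice and were tested in the same fit, with 1 estimate of spread per gene. Calls at both times are therefore not independent of each other. At 6 h 176 genes were higher and 19 lower with 9cisRA (195 calls, 1.72% of tested genes). At both times 16 genes were called, all in the same direction, which is 30.2% of the 24 h calls and 8.21% of the 6 h calls. Across the tested genes, which are not independent replicates, the differences at 24 h and 6 h correlated at r = 0.458 (rho 0.420). Pdk4 differed by 1.58 ± 0.075 (adjusted p = 2.24e-07) at 6 h, Abca1 by 1.21 ± 0.11 (adjusted p = 0.000229), Acot1 by 1.42 ± 0.10 (adjusted p = 1.72e-05) and Srebf1 by 0.73 ± 0.11 (adjusted p = 0.00573). PPAR targets were higher with 9cisRA at 16 of 41 at 6 h and LXR targets at 7 of 16 (beside 1.55% of all genes higher), against 9 and 3 at 24 h. The difference between these counts was not tested. The 6 h count was the less stable: it was 695 without the first atRA duplicate of mouse 2 and 43 without the second, and 95 and 335 without the first and second atRA duplicates of mouse 1.

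The bile acid genes were not called at 6 h. The FXR list had 0 calls then, at a median of 0.12, and Fabp6 differed by 0.08 ± 0.28 (adjusted p = 0.928), Slc51a by -0.02 ± 0.089 (adjusted p = 0.936) and Nr0b2 by 0.03 ± 0.13 (adjusted p = 0.947). The change of the isomer difference between the times (24 h minus 6 h) was called at 4 genes (0.0352%). Of the 11361 tested genes, 617 passed an unadjusted p below 0.05 in limma. Fabp6 changed by -3.40 ± 0.40 (adjusted p = 0.00582), a call lost at a pseudocount of 0.1, with only the isomer groups in the fit and with voom. Without the mouse term 1 of the 4 was called. Rnase4, a secreted ribonuclease, changed by -0.56 ± 0.065 (adjusted p = 0.00582): at 24 h it was lower with 9cisRA, at 81, 75.1, 76.4 and 89.6 RPKM against 105, 103, 116 and 123 RPKM with atRA (log2 difference -0.47 ± 0.046 SE, limma adjusted p = 0.000428). Gm5485 changed by 1.19 ± 0.16 (adjusted p = 0.0216), with -0.42 ± 0.11 (adjusted p = 0.0848) at 6 h; this call was lost without the first 9cisRA duplicate of mouse 1, the second of mouse 2 or the first atRA duplicate of mouse 2 at 24 h, and without the second 9cisRA duplicate of mouse 1 at 6 h. Mxd1, a partner of MAX linked to the end of division, changed by 0.47 ± 0.066 (adjusted p = 0.0226), with -0.26 ± 0.047 (adjusted p = 0.0165) at 6 h and 0.21 (adjusted p = 0.0791) in limma at 24 h; this call was lost without the first 9cisRA duplicate of mouse 2 at 6 h. For Slc51a the change was not called (-0.64 ± 0.13 SE, adjusted p = 0.201), nor for Cyp26b1 (-0.74 ± 0.17 SE, adjusted p = 0.375), Pdk4 (-0.63 ± 0.11 SE, adjusted p = 0.0861) or Acot1 (-0.87 ± 0.14 SE, adjusted p = 0.0818).

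**Figure D5:**
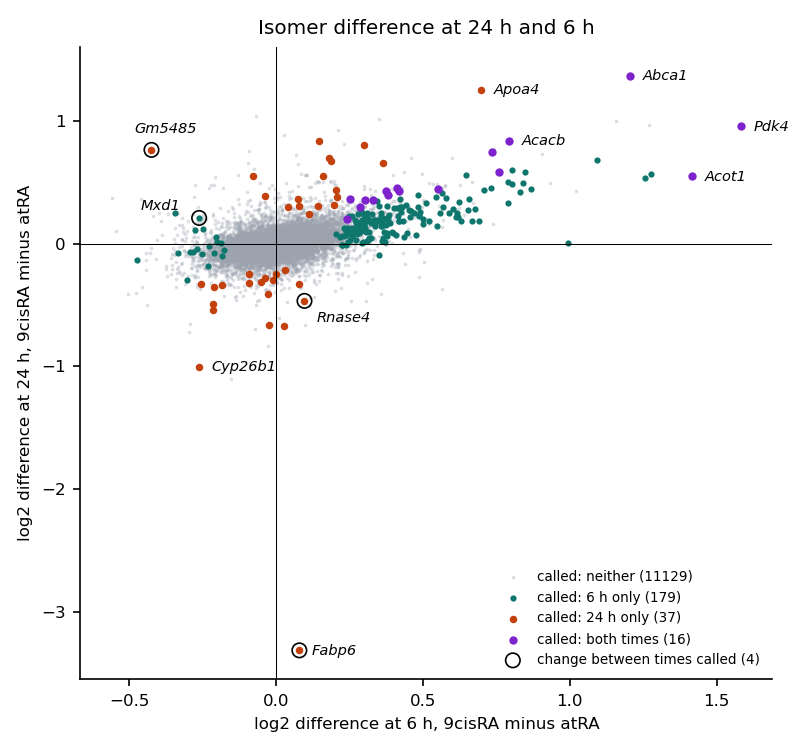
Log2 difference of 9cisRA minus atRA at 24 h (vertical) against that at 6 h (horizontal) for 11361 genes, coloured by the time at which they were called; rings mark the 4 genes whose change between the times was called. Pdk4, Abca1 and Acot1 lie to the upper right at both times, and Fabp6 lies low at 24 h with no difference at 6 h.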

How the data were processed

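mRNA was sequenced from 36 libraries. Per the submitters' processing notes, bcl2fastq 2.17 and STAR 2.5.2b were used with mm10. RPKM values were deposited by the authors, with no statement of the library scaling or strand. Whole reads could be recovered for 100% of genes, and the authors' divisor followed median-of-ratios factors (SD 0.661%) more closely than read sums (5.47%). Duplicates were averaged on log2(RPKM + 0.5), giving 18 values in 9 conditions, and fitted in limma 3.58.1 (R 4.3.3) with mouse as a block and a variance prior that follows the mean level (residual df 8, prior df 5.01), after a filter of 1 RPKM in at least 4 libraries. The script was tested on simulated data. The mouse pairs the samples, since the labels tie each culture to a mouse, and mouse differences correlated at 0.490 between the isomer groups. Duplicate numbers did not (0.0273 and -0.0613).

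Genes named are the 14 highest and 14 lowest called genes of at least 0.5 log2 (15 and 5 qualified), up to 4 members of each list with the smallest p, a panel, and the called changes between times. Genes named outside this rule, Apoa1, Mxd1 and smaller calls of the lists among them, were picked after their values were seen. Some genes that the rule names are not reported here. Members and the 36 lists were chosen with earlier results of these data known. Intervals are 95%. Gene positions and promoters are from RefSeq GRCm38.p6, matched by gene ID. The alternatives were other pseudocounts, filters, scalings, fits and left-out libraries.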

Additional observations from a re-analysis of the deposited data

Results flagged for a closer look

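In 134 groups of 4 libraries (67 genes with each isomer), 1 library stood far from the other 3 in 8 groups by Dixon's test at the 95% level. Chance alone flags about 5% of groups of 4 independent values. These groups are 2 mice in duplicate, so that share is only a rough guide, and the flags are descriptions. Among 9cisRA libraries, the brush border phosphatase Alpi was highest at 974 RPKM in 1 library, asparagine synthetase Asns lowest at 72.2, the carnitine palmitoyltransferase Cpt1a lowest at 154, and the sterol enzyme Nsdhl lowest at 84.3. For Cpt1a the 4 values lay so close that the gap is small in size. Among atRA libraries, the transcription factor Cebpa had an outlying value of 20.9 RPKM, the calcium sensor gene Cracr2b 7.31, the clock output gene Dbp 1.73 and lanosterol synthase Lss 37.4.

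The difference between the isomers changed between 6 h and 24 h at 4 genes by the test of the change itself (24 h minus 6 h, limma adjusted p below 0.05). It was -3.40 for Fabp6, -0.56 for Rnase4, 1.19 for Gm5485 and 0.47 for Mxd1. For Fabp6 both mice showed the lower level with 9cisRA at 24 h, on 2 to 5 reads a library with 9cisRA against 55 to 140 with atRA.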

How the results depend on the processing

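None of the 53 called genes changed direction in any alternative run, whereas the uncalled Chga, Dhrs3, Isx, Lyz1, Mki67 and Olfm4 did in some. Of the 53 called genes 7 kept their call in every one: Abca1, Acacb, Cpt1a, Dbp, Fabp6, Fdft1 and Pdk4. A further 8 lost it only without the mouse block, and 22 kept it in every fit that left out a library or a mouse. The count of 53 called genes (34 higher, 19 lower) was 35 (19 higher) after quantile normalization, 30 (20 higher, 10 lower) with a variance prior without a trend, 18 (12 and 6) at an adjusted p below 0.01 and 106 (74 and 32) with voom on recovered reads. It was 10 (7 and 3) with no replicate block for the mouse. With only the isomer groups of 6 h and 24 h in the fit, the count was 47 (34 and 13). Of these 47 calls, 29 were among the 53, so other calls of the 53 depend on the spread of the other conditions. It was 292 (207 and 85) with libraries as separate samples, 282 (201 and 81) with the duplicate number added as a replicate block, and 307 (234 and 73) with only the 24 h isomer groups in that fit; these treat duplicates of 1 culture as samples. Mouse 1 alone gave 84 (63 higher) and mouse 2 alone 112 (66 and 46), over duplicates. Leaving out each library gave 49 to 77 calls, 29 to 55 higher and 16 to 24 lower. The 195 calls at 6 h were 40 with no replicate block, 562 and 547 in the separate fits without and with the duplicate number, 88 with only the isomer groups, 43 at an adjusted p below 0.01, 75 and 58 with mouse 1 and mouse 2 alone, and 43 to 695 with 1 library left out.

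The 4 changes between times were 2 at a pseudocount of 0.1, 2 with a mean of at least 5 RPKM, 1 with no replicate block, 27 and 29 in the separate fits without and with the duplicate number, 2 at an adjusted p below 0.01, 10 and 2 with mouse 1 and mouse 2 alone, and 3 to 7 with 1 library left out. The cause of these shifts was not tested, apart from the fewer samples or stricter threshold that some were built with. With 2 mice and a median SE of 0.072, small differences of low genes are beyond these data. Fabp6 rests on few reads with 9cisRA, so the size of its difference depends on the pseudocount (-2.69 at a pseudocount of 1, and down to -4.69 with voom).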

Other observations

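Some called genes outside the lists, chosen here after their values were seen, concern iron, cytokines, amino acids and steroids. Slc40a1, the iron exporter of enterocytes, was lower with 9cisRA, at 10.8, 10.3, 6.93 and 7.72 RPKM against 13.6, 13.6, 10.2 and 10.4 RPKM with atRA (log2 difference -0.41 ± 0.081 SE, limma adjusted p = 0.0467). Within each mouse its groups did not overlap, while the mice did differ in level. Il18, an epithelial cytokine, was lower at 50.1, 50.4, 60.7 and 77.2 RPKM against 67.6, 62.6, 104 and 107 RPKM with atRA (log2 difference -0.50 ± 0.095 SE, limma adjusted p = 0.0423). Cth, which makes cysteine, and Aldh1l1, which oxidises a folate one-carbon unit, were lower with 9cisRA, with log2 differences of -0.32 (adjusted p = 0.0467) and -0.33 (adjusted p = 0.0255) in limma. The Slc40a1 call was lost without the second 9cisRA duplicate of mouse 1, the Il18 call without the first 9cisRA duplicate of mouse 2 or the first atRA duplicate of mouse 1, and the Cth call without any 1 of these 3 libraries.

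Among the higher genes, the phosphate transporter gene Slc20a1 differed by 0.39 (adjusted p = 0.00669), the actin-severing gelsolin gene Gsn by 0.31 (adjusted p = 0.0105), the regulator Lbh by 0.36 (adjusted p = 0.0106), the steroid dehydrogenase Hsd17b11 by 0.43 (adjusted p = 0.0228), the tetraspan gene Lhfpl2 by 0.44 (adjusted p = 0.0357), the vesicle coat gene Sec24d by 0.30 (adjusted p = 0.0357), the netrin receptor Unc5b by 0.35 (adjusted p = 0.0413), the secreted kinase gene Fam20c by 0.32 (adjusted p = 0.0413) and Cracr2b by 0.29 (adjusted p = 0.0467) in limma. Hsd17b11, Unc5b and Cracr2b were also higher with 9cisRA at 6 h, at 0.37, 0.30 and 0.28. At 24 h the calls of Fam20c and Hsd17b11 were lost without the first atRA duplicate of mouse 2, and Hsd17b11 also without the first 9cisRA duplicate of mouse 1. Those of Unc5b and Cracr2b were lost without the second 9cisRA duplicate of mouse 1 or the first of mouse 2, and Cracr2b also without the first atRA duplicate of mouse 1 or the second of mouse 2.

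The duplicates of mouse 2 with 9cisRA that stood apart differed at some secretory cell genes, chosen after their values were seen. The first minus the second differed by -1.51 log2 at the Paneth defensin Defa26, by 1.10 at Defa5, by 1.22 at the hormone gene Sst and by 0.93 at the hormone gene Gip.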
